A study of Mus musculus with 3 samples.

Results

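The growth hormone (GH), STAT5 and IGF1 axis of the liver was read through 10 genes that were chosen by name: the receptor gene Ghr, the transcription factor genes Stat5a and Stat5b, the feedback inhibitor genes Socs2 and Cish, the output genes Igf1 and Igfals, the repressor genes Bcl6 and Cux2, and the steroid enzyme gene Hsd3b5. Every probe set whose platform annotation names only 1 of these genes was used, which gave 25 of 45037 probe sets. A probe set was kept if its mean log2 signal over the arrays was in the upper 50%, at a signal of 76.9 or more. By this limit 20 of the 25 probe sets and 10 of 10 genes were kept, out of 11341 kept genes in all, and the brightest probe set of 10 of 10 genes was above 76.9 on every array. Each gene was read mainly by its brightest probe set.

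Liver RNA came from male C57BL/6J mice fed for 15 weeks, starting at 6 weeks of age, with the 60 kcal% fat diet D12492 to which sodium ferrous citrate, an iron salt, was added at 0.023% by weight (HF+SFC), with D12492 alone (HF), or with the 10 kcal% fat diet D12450B (Control). The labels give an age of 21 months, which does not match these times. Carbohydrate also differed, at 70 kcal% in Control and 20 kcal% in both high-fat diets, and the paper names the difference in sucrose as a limitation. HF over Control is thus not a contrast in fat alone. All mice of a group were mixed into 1 pool, and 1 Affymetrix Mouse Genome 430 2.0 array was hybridised per pool, so no test between groups was possible, and each ratio compares 1 pool with another. The values are MAS5 signals, which are intensities on a linear scale. As a scale for a log2 ratio, the scatter among probe sets that read the same gene was used. It is the SD of their log2 ratios among probe sets of like signal, given as ± (SD). This SD covers differences between probe sets. It leaves out the spread between mice and any error that the probe sets of an array share, so it is not the full error of a ratio. Hepatocyte markers such as Alb were abundant on 3 of 3 arrays, and 0 of 10 of the kept ones differed by 1.5-fold in HF+SFC over HF or in HF over Control. Among all kept genes 8.22% and 17.1% did, in that order. The ratio of 3′ to 5′ signal, a measure of RNA integrity, was lowest in HF for each of 3 control transcripts. It was 3.89 in HF+SFC, 3.23 in HF and 4.28 in Control for pyruvate carboxylase, 1.73 in HF+SFC, 1.65 in HF and 1.84 in Control for Actb, and 0.708 in HF+SFC, 0.680 in HF and 0.708 in Control for Gapdh. Its part in the ratios that involve HF was not tested.

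GH from the pituitary binds its receptor on hepatocytes, and the associated kinase JAK2 then phosphorylates STAT5, which enters the nucleus and drives transcription. Hepatic IGF1, carried in plasma with the acid-labile subunit encoded by Igfals, is the main endocrine product of this pathway, and CISH and SOCS2 are STAT5-induced inhibitors that limit it. In male mice GH is released in pulses, and the pulses keep a male pattern of liver genes, of which Hsd3b5 is a known example, whereas Cux2 is known as a female-enriched repressor and Bcl6 as a male-enriched repressor that GH lowers through STAT5.

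The axis was split. The receptor, the STAT5 genes, Igf1 and Igfals differed by less than 1.5-fold between the pools in each comparison, while the feedback, repressor and steroid enzyme genes passed 1.5-fold in 1 comparison or more, and for 4 of these 5 the HF array was the highest or the lowest. In HF+SFC over HF, Cish and Hsd3b5 were at least 1.5-fold higher and Bcl6 and Cux2 at least 1.5-fold lower, that is 2 of 10 genes each way, where 2.88% of all kept genes were higher and 5.33% lower (4 of 10 either way, against 8.22%). In HF over Control, Bcl6 and Cux2 were at least 1.5-fold higher (2 of 10, against 11.3% of all kept genes), and Cish, Hsd3b5 and Socs2 at least 1.5-fold lower (3 of 10, against 5.84%), or 5 of 10 either way, against 17.1%. The median log2 ratio of the 10 genes was 0.03 in HF+SFC over HF and 0.04 in HF over Control, beside -0.01 and 0.03 over all kept genes. Both comparisons use the same HF array, so an error in its signal enters both with opposite sign. The 10 genes were chosen with earlier results of these data known, so their counts beside these shares are a description and no test.

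**Figure D1:**
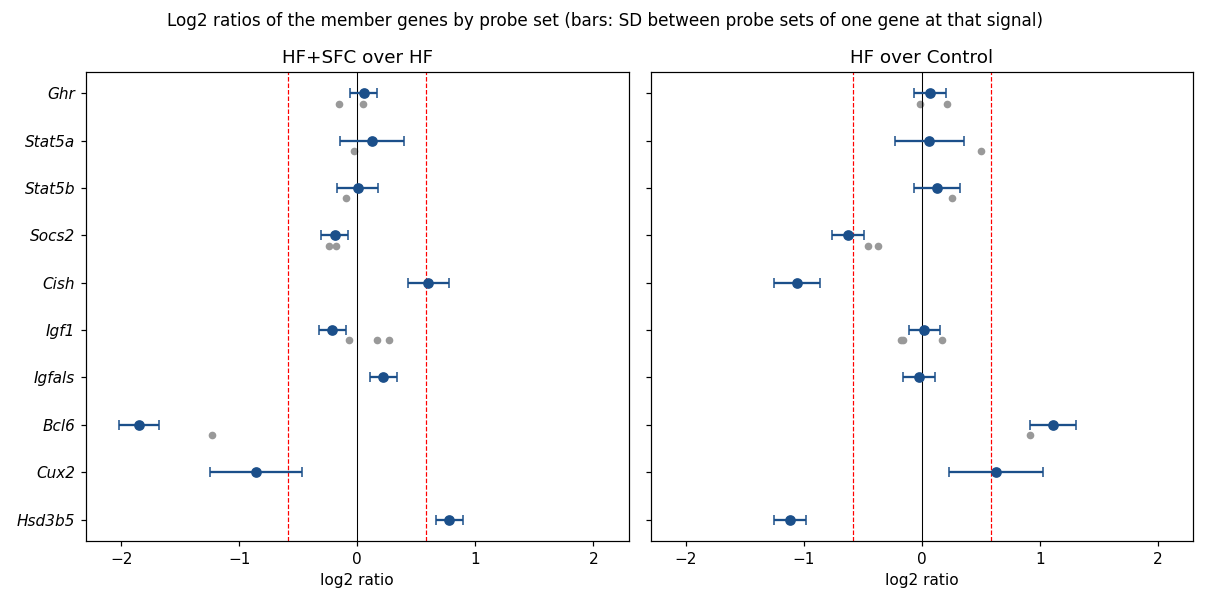
Log2 ratio (x axis) of each of the 10 genes (rows) in HF+SFC over HF (left) and HF over Control (right), 1 array per group. Blue points are brightest probe sets with bars of 1 SD between probe sets at that signal, grey points other kept probe sets, and dashed lines mark 1.5-fold. Bcl6 lies at -1.85 on the left and 1.11 on the right, and Hsd3b5 at 0.78 and -1.12.

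Ghr, the receptor, was level across the pools. Its brightest probe set gave 22513 in HF+SFC, 21681 in HF and 20693 in Control, which is a log2 ratio of 0.05 ± 0.11 (SD) for HF+SFC over HF and 0.07 ± 0.13 (SD) for HF over Control. The other kept probe sets of Ghr were between -0.16 and 0.05 in HF+SFC over HF and between -0.02 and 0.21 in HF over Control. The ratios of the brightest probe set were within this SD.

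Stat5b, the STAT5 gene on which the male pattern of mouse liver depends most, had signals of 961 in HF+SFC, 957 in HF and 878 in Control by its brightest probe set. Its log2 ratios were 0.01 ± 0.17 (SD) for HF+SFC over HF and 0.12 ± 0.20 (SD) for HF over Control. Stat5a had signals of 451 in HF+SFC, 412 in HF and 395 in Control, with log2 ratios of 0.13 ± 0.27 (SD) and 0.06 ± 0.29 (SD) in the same order of comparisons. The second, dimmer probe set of Stat5a gave 196 in HF+SFC, 200 in HF and 142 in Control, a log2 ratio of 0.50 ± 0.40 (SD) for HF over Control. Neither STAT5 gene differed by 1.5-fold in any comparison by any probe set. The signal is that of mRNA and carries no measure of STAT5 phosphorylation.

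The feedback genes did not share one pattern. Cish, a SOCS-family protein that binds the activated receptor, was read by 1 probe set with signals of 922 in HF+SFC, 608 in HF and 1269 in Control. It was 1.52-fold higher in HF+SFC than in HF (log2 0.60 ± 0.17, SD) and 2.09-fold lower in HF than in Control (log2 -1.06 ± 0.20, SD). The lowest of the 3 pools was HF, and HF+SFC lay between HF and Control. The HF+SFC over HF ratio is close to the 1.5-fold threshold and ranged between 0.59 and 0.62 on the log2 scale under other scalings and filters. Of all 11341 kept genes, 166 had a lower HF over Control ratio than Cish.

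Socs2, which encodes an inhibitor whose loss gives oversized mice, followed another order. Its brightest probe set had signals of 1281 in HF+SFC, 1463 in HF and 2257 in Control. It was lower by 1.54-fold in HF than in Control (log2 -0.63 ± 0.13, SD), and the HF+SFC over HF ratio was -0.19 ± 0.11 (SD) on the log2 scale. Control was thus the highest pool, and HF+SFC was not above HF. The other 2 kept probe sets gave log2 ratios of -0.45 and -0.37 for HF over Control, both inside 1.5-fold, and of -0.24 and -0.18 for HF+SFC over HF. As the median over its 3 kept probe sets, Socs2 stood at -0.45 in HF over Control and did not pass. Another 3 probe sets of Socs2 were below the kept level. The brightest of them had signals of 98.2 in HF+SFC, 43.3 in HF and 15.1 in Control, against the direction of the kept ones.

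STAT5 binds the palindrome TTCNNNGAA, which reads the same on both strands, so 1 search covers both. The proximal promoters of the members, as RefSeq windows of build GRCm38.p6 from 250 bases before to 50 after each annotated start, were searched for it, since the members include genes known to respond to STAT5. Windows were found for 9 of 10 members (16 windows), the exception being Socs2. The palindrome was in 5 of the 16 windows, and 8.3% of all 32851 windows hold it. These belonged to 3 of the 9 genes, Cish, Bcl6 and Igfals, where 9.55% of all 27025 genes with a window hold it. Bcl6 and Igfals held it in 2 windows each, and the members were chosen as genes of this axis. No excess is therefore read from these counts. Overlap with other motifs was not examined. A match is a run of letters, not a measured binding site. The stretches that hold matches in Cish, Bcl6 (at each of its 2 annotated starts) and the second Igfals window follow, 5′ to 3′ on the gene's strand, with the palindromes in capitals.
Cish, chr9:107296619-107296688 (+ strand), from 40 bases before to 30 after the start: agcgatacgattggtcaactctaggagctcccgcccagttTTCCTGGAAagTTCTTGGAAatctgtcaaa
Bcl6 window 1, chr16:23981354-23981463 (- strand): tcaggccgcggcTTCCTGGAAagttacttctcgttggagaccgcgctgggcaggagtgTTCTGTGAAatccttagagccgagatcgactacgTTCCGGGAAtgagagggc
Bcl6 window 2, chr16:23988943-23988992 (- strand): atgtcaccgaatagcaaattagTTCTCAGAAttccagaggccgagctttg
Igfals window 2, chr17:24878151-24878200 (+ strand): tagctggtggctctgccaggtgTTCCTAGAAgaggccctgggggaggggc
The 2 matches of Cish begin at bases 1 and 12 from the annotated start. Bcl6 held 3 matches in window 1, beginning 168, 122 and 88 bases before the start, and 1 in window 2, beginning 118 bases before it. Genes with a match thus included one that was lower in HF (Cish), one that was higher in HF (Bcl6) and one that was level (Igfals), while the other windows, those of Hsd3b5 and Cux2 among them, held none.

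Igf1, the hormone of the axis, was level by 4 probe sets. The brightest gave 17162 in HF+SFC, 19875 in HF and 19624 in Control, and the next 20483 in HF+SFC, 16980 in HF and 19177 in Control. In HF+SFC over HF their log2 ratios were -0.21 and 0.27, so that the probe sets disagreed in sign, and the remaining 2 were at 0.17 and -0.07. In HF over Control the 4 probe sets lay between -0.18 and 0.17. Hence no direction can be given for Igf1 in either comparison, and 0 of its probe sets reached 1.5-fold.

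Igfals, which encodes the liver-made protein that holds IGF1 in the long-lived plasma complex, had signals of 3154 in HF+SFC, 2705 in HF and 2753 in Control. Its log2 ratio was 0.22 ± 0.11 (SD) in HF+SFC over HF, inside 1.5-fold but larger than the SD between probe sets, and -0.03 ± 0.13 (SD) in HF over Control. Only 1 probe set reads this gene. In the same signal range, probe sets of Igf1 had ratios of that size with opposite signs (-0.21 and 0.27 in HF+SFC over HF). Hence no direction is given for Igfals either.

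Among 13 kept genes of IGF receptors, IGF-binding proteins and the proteases and inhibitors that act on them, 3 had a signal at least 1.5-fold lower in HF+SFC over HF, and 0 a higher one. The shares over all kept genes were 5.33% lower and 2.88% higher there. In HF over Control 2 were higher and 2 lower, against 11.3% and 5.84% of all kept genes. The 2 lower genes were binding proteins: Igfbp1 had signals of 3549 in HF+SFC, 3877 in HF and 16981 in Control, and Igfbp2, which circulates at lower levels in obesity, had 7142 in HF+SFC, 5054 in HF and 15262 in Control. Both high-fat pools were well under Control for these binding proteins. Igfbp3, the main carrier of plasma IGF1, stood at -0.56 in HF+SFC over HF and at 0.41 in HF over Control on the log2 scale, with a second probe set at -0.71 and 1.10. The stanniocalcin genes Stc1 and Stc2, whose products inhibit the protease that cleaves IGF-binding protein 4, had their highest signal in HF, but were dim: Stc2 gave 79.9 in HF+SFC, 169 in HF and 79.1 in Control, and Stc1 gave 89.3 in HF+SFC, 151 in HF and 91.8 in Control. The protease gene Htra1 had signals of 70.5 in HF+SFC, 126 in HF and 110 in Control, below the kept level in HF+SFC.

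Bcl6, a zinc finger repressor, differed most of the members in HF+SFC over HF. Its brightest probe set had signals of 557 in HF+SFC, 2009 in HF and 928 in Control, and its second probe set had 221 in HF+SFC, 520 in HF and 276 in Control. HF was the highest array and HF+SFC the lowest by both. The log2 ratio of HF+SFC over HF was -1.85 ± 0.17 (SD) by the brightest and -1.23 ± 0.27 (SD) by the second probe set, and of 11341 kept genes 21 had a lower one than the brightest. In HF over Control Bcl6 was 2.16-fold higher (log2 1.11 ± 0.20, SD), with the second probe set at 0.91 ± 0.29 (SD). In HF+SFC over Control it was 1.67-fold lower (log2 -0.74 ± 0.21, SD), but the second probe set gave -0.32 ± 0.31 (SD), and the median of both, -0.53, did not reach 1.5-fold. Of 4 kept genes of corepressors that work with BCL6 (Bcor, Hdac3, Ctbp1 and Ctbp2), 0 differed by 1.5-fold in any comparison by the brightest probe set. Among all kept genes 8.22% did in HF+SFC over HF, 17.1% in HF over Control and 16.1% in HF+SFC over Control. With 4 genes, a count of 0 is near these shares. The 3 kept probe sets of Bcor disagreed, lying between -0.50 and 1.14 in HF over Control and between -0.38 and 0.71 in HF+SFC over Control on the log2 scale.

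Cux2, a homeodomain repressor of male-pattern genes in female mouse liver, was dim. Its only kept probe set gave 159 in HF+SFC, 288 in HF and 187 in Control. It was 1.81-fold lower in HF+SFC than in HF (log2 -0.86 ± 0.39, SD), and the HF over Control ratio of 0.63 ± 0.40 (SD) dropped under 1.5-fold with quantile (0.52) or lowess (0.53) scaling. The other 2 probe sets were below the kept level. They had signals of 7.45 and 4.29 in HF+SFC, 38.6 and 78.8 in HF, and 28.6 and 19.3 in Control, so that HF was also their highest array, at signals too low for a fold.

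Bcl6 and Cux2 are also expressed outside hepatocytes. Many markers of macrophages and stellate cells stood highest in HF as well, as did the 3 kept lymphocyte markers by the brightest probe set. Of 11 kept macrophage and Kupffer cell markers, 3 were at least 1.5-fold lower in HF+SFC than in HF and 3 higher in HF than in Control, with summed signals of 19772 in HF+SFC, 26004 in HF and 19822 in Control. Stellate cell and matrix genes had 6 of 10 lower in HF+SFC over HF and 8 of 10 higher in HF over Control. Their summed signals were 9500 in HF+SFC, 14205 in HF and 7506 in Control. Over all kept genes 5.33% were lower in HF+SFC over HF and 11.3% higher in HF over Control. The 3 kept lymphocyte markers, Ptprc, Ighm and Ccl5, summed to 1541 in HF+SFC, 3054 in HF and 1323 in Control. The 5 kept probe sets of Ighm lay between 0.02 and 1.31 in HF over Control on the log2 scale. Cd3e, Cd3d, Cd2, Cd79a, Cd79b and Ms4a1 were below the kept level by mean signal. Of these, Cd3d and Cd79b were highest in HF+SFC (73.3 and 99.5, against 45.4 and 35.4 in HF), and the others in HF. Endothelial and cholangiocyte markers were mixed. The 8 endothelial markers summed to 8806 in HF+SFC, 9625 in HF and 8832 in Control, and in HF over Control 5 of 8 were above 0 and 3 of 8 below, among them Cdh5, with 526 in HF+SFC, 514 in HF and 613 in Control. The 3 kept cholangiocyte markers summed to 257 in HF+SFC, 326 in HF and 324 in Control, but Sox9 was lowest in HF, with 122 in HF+SFC, 91.9 in HF and 163 in Control. None of the markers on the array was at 0, but some were far under the kept level, such as Itgam at 6.94 and Cd3d at 12.1 in Control. A signal above 0 is thus not read as presence of a cell type. Fewer cells of a type and less RNA per cell cannot be told apart in whole liver RNA, and the part of these cells in the Bcl6 and Cux2 ratios was not tested.

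Hsd3b5, a 3-ketosteroid reductase made in adult male mouse liver, had signals of 5754 in HF+SFC, 3355 in HF and 7279 in Control. It was 1.72-fold higher in HF+SFC than in HF (log2 0.78 ± 0.11, SD) and 2.17-fold lower in HF than in Control (log2 -1.12 ± 0.13, SD). HF was the lowest array, and HF+SFC was between HF and Control, at -0.34 ± 0.14 (SD) against Control. Hsd3b5 is read by 1 probe set and has close relatives in the mouse genome. The relatives read here did not share its pattern: Hsd3b2 gave 1229 in HF+SFC, 1228 in HF and 759 in Control, Hsd3b3 gave 4326 in HF+SFC, 4129 in HF and 2736 in Control, and both were thus higher in the high-fat pools. Hsd3b7, a bile acid synthesis enzyme, gave 22035 in HF+SFC, 19337 in HF and 18767 in Control.

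**Figure D2:**
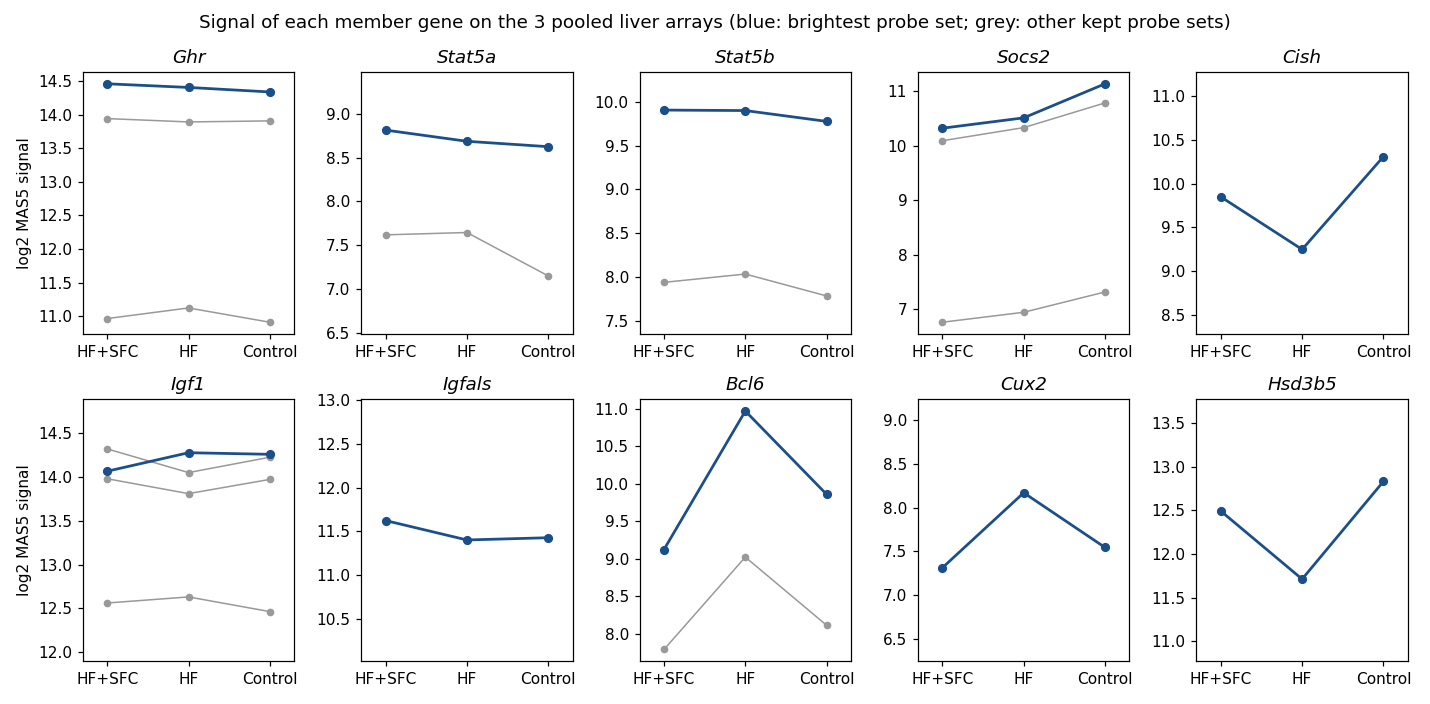
Log2 MAS5 signal (y axis) of the 10 genes on the HF+SFC, HF and Control arrays (x axis), 1 panel per gene, each spanning at least 3 log2 units; blue marks the brightest probe set, grey the other kept ones, and lines join values of 1 probe set. Bcl6 and Cux2 peak in HF (2009 and 288), whereas Cish and Hsd3b5 are lowest there (608 and 3355).

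The genes nearest to each of the 5 members that differed were sought among 4949 kept genes with 2 or more kept probe sets outside the lists, by the distance between their pairs of log2 ratios over the 3 arrays. The 3 arrays give only 2 ratios that vary freely, so closeness is a description of these pools. Nearest to Cish was Grtp1, a TBC domain protein gene, at a distance of 0.06, with signals of 658 in HF+SFC, 426 in HF and 857 in Control, and Grtp1 was also among the 3 nearest to Hsd3b5 (0.19). After Grtp1, the nearest to Cish were Hif3a (0.17) and then Hamp (0.18), the gene of the iron hormone hepcidin. Hamp had log2 ratios of 0.45 in HF+SFC over HF and -1.15 in HF over Control. Both distances are about the SD between probe sets at the signal of Cish (0.17 in HF+SFC over HF). Nearest to Hsd3b5 was Dennd6b (0.08), and nearest to Socs2 was Akap10 (0.03). Cux2 lay nearest to Irf8 (0.04), a transcription factor of myeloid and B cells, to Zeb2 (0.06) and to Ntmt1 (0.06). These distances are well under the SD between probe sets at the signal of Cux2 (0.39 in HF+SFC over HF), so their order carries no weight. Bcl6 had no neighbour as close as those of the other members, the nearest being Tmem132e at 0.36. Tmem132e was dim, with signals of 60.5 in HF+SFC, 175 in HF and 71.9 in Control, the first and last under the kept level. Its distance is under the SD between probe sets among the dimmest kept ones (0.58 in HF+SFC over HF).

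A list of other genes that are higher in male than in female mouse liver, which leaves out the member Hsd3b5, was for the greater part lower in HF than in Control. In HF over Control 7 of 13 kept male-biased genes were at least 1.5-fold lower and 1 was higher. The shares over all kept genes were 5.84% lower and 11.3% higher. The list had a median log2 ratio of -0.59, beside 0.03 over all kept genes. Elovl3, a fatty acid elongase, had signals of 9091 in HF+SFC, 8770 in HF and 32082 in Control, and the transporter gene Slco1a1 had 8882 in HF+SFC, 7022 in HF and 14191 in Control. Others, such as Cyp2d9 (29533 in HF+SFC, 30401 in HF and 29990 in Control), were level. Between HF+SFC and HF 0 of 13 were higher and 2 were lower in HF+SFC, against 2.88% and 5.33% of all kept genes. The lower genes were Ugt2b38 and Cyp4a12a, at -0.81 and -0.74 on the log2 scale. The median of the list in HF+SFC over HF was 0.00 and turned negative under quantile and lowess scaling.

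Of 10 kept female-biased genes, 5 were at least 1.5-fold higher and 1, Acot3, was lower in HF than in Control. The shares over all kept genes were 11.3% higher and 5.84% lower. Of the 5 higher genes 4 were under the kept level in Control and were kept through their signal in the high-fat pools, so their number is no evidence on the list. Cyp2b9, a steroid-metabolising cytochrome P450, had signals of 3552 in HF+SFC, 3810 in HF and 52.8 in Control, and Fmo2, a flavin monooxygenase gene above the kept level on 3 of 3 arrays, had 496 in HF+SFC, 582 in HF and 249 in Control. Between HF+SFC and HF 1 of 10 was higher in HF+SFC and 0 were lower, against 2.88% and 5.33% of all kept genes. The higher one was Tox, with 314 in HF+SFC, 182 in HF and 128 in Control. The 3 kept probe sets of Tox disagreed in HF+SFC over HF, lying between -0.71 and 0.79 on the log2 scale.

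Of 10 kept genes of hepatocyte transcription factors acting beside STAT5, 5 were at least 1.5-fold lower in HF than in Control and 0 higher. The shares over all kept genes were 5.84% lower and 11.3% higher. The list had a median log2 ratio of -0.56, which was -0.25 with probe sets marked as shared between transcripts left out. The hepatocyte factor Onecut1, a factor that GH is known to raise, had signals of 750 in HF+SFC, 553 in HF and 1349 in Control, and Foxa1 had 1114 in HF+SFC, 1136 in HF and 2599 in Control. None of these 10 genes differed by 1.5-fold between HF+SFC and HF (0 of 10 by the brightest probe set). Upstream, of 18 kept kinases, STATs, phosphatases and adaptors of the GH receptor, 1 differed by 1.5-fold in either comparison by the brightest probe set. It was the insulin receptor substrate gene Irs2, which was lower in HF than in Control and higher in HF+SFC than in HF. Over all kept genes 8.22% differed either way in HF+SFC over HF and 17.1% in HF over Control. The kinase gene Jak2 had signals of 804 in HF+SFC, 827 in HF and 820 in Control, but its second kept probe set stood at -0.75 in HF+SFC over HF and 0.56 in HF over Control on the log2 scale. Among 5 other kept SOCS genes, Socs3, an inhibitor of cytokine receptors induced by STAT3, had 376 in HF+SFC, 446 in HF and 980 in Control, and Socs6 was also lower in HF than in Control (log2 -0.64).

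**Figure D3:**
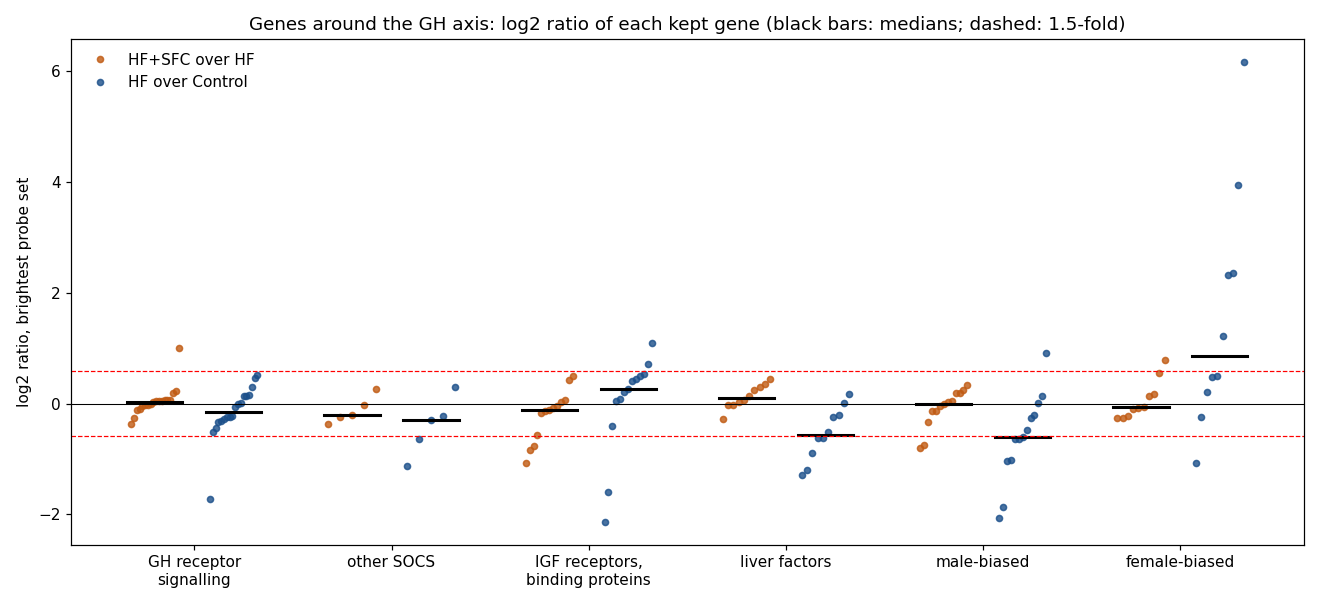
Ratios on the log2 scale (y axis) for the kept genes of 6 lists around the GH axis (x axis), in HF+SFC over HF (orange) and HF over Control (blue), by the brightest probe set on 1 array per group; black bars are medians and dashed lines 1.5-fold. The male-biased median is 0.00 in orange and -0.59 in blue, and 4 of the 5 female-biased genes above the line in blue were under the kept level in Control.

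Circadian clock genes, many of which have a daily rhythm in liver, also differed between the high-fat pools and Control. In HF over Control 5 of 13 kept clock genes were at least 1.5-fold higher and 3 lower. The shares over all kept genes were 11.3% higher and 5.84% lower. However, 1 of the 5, Ciart, was under the kept level in Control (68.4) and was kept through its signal in the high-fat pools. Dbp had signals of 6891 in HF+SFC, 5398 in HF and 1406 in Control, and Clock had 898 in HF+SFC, 879 in HF and 1873 in Control. Between HF+SFC and HF 0 of 13 differed by 1.5-fold, where 8.22% of all kept genes did, so this count is near that share. The part of time of day in the HF over Control ratios of the axis was not tested.

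Set directly against Control, HF+SFC had 0 of 10 members at least 1.5-fold higher, where 9.2% of all kept genes were, and 2 of 10 lower, Socs2 and Bcl6, where 6.88% were, or 2 of 10 either way, against 16.1%. Socs2 was 1.76-fold lower (log2 -0.82 ± 0.14, SD), with its other kept probe sets at -0.70 and -0.56. Cish stood at -0.46 ± 0.21 (SD) and Cux2 at -0.23 ± 0.44 (SD), both inside 1.5-fold. The median of the 10 genes was -0.21, beside 0.02 over all kept genes.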

How the data were processed

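Biotin-labelled cRNA from 1 pooled liver sample per diet was hybridised to Affymetrix Mouse Genome 430 2.0 arrays. The deposited intensities are MAS5 signals per the labels (version not given in the sources used here), and the authors had scaled them, the 2% trimmed mean being 500.004 on each array. There were 45037 probe sets besides 64 controls. In the platform annotation, counted before controls were set aside, 34958 probe sets named 1 gene, and 0 of those naming several held a member. Log2 ratios of signals were taken with no pseudocount, a gene was read by its brightest kept probe set, and counts use 1.5-fold, the study's threshold. There is no test with 1 array per group. Members and lists were chosen with earlier results of these data known, the lists from general knowledge of mouse liver. The genes named are all members, up to 6 kept genes of each list and comparison with the largest ratio past 1.5-fold, and the 3 nearest genes, from which examples are given; level genes were added after their values were seen. Steps were tested on simulated data with the same noise at all signals and no error shared by an array. That is a check of the code and not of the calls made here. Alternatives were quantile, median and lowess (fraction 0.3) scaling, other filters, a floor, a pseudocount of 16, other readings of a gene and a 2-fold threshold. Python 3.11.15, pandas 2.3.3 and statsmodels 0.14.6 were used.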

Additional observations from a re-analysis of the deposited data

How the results depend on the processing

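Of the recomputed counts of members past 1.5-fold, 51 stayed within 1.5 times the count first given and 9 did not. For HF over Control, the count of higher members was 1 in place of 2 under quantile scaling, lowess scaling, the upper 25% of signal and a 2-fold threshold, each time without Cux2. The shares over all kept genes were then 9.51%, 9.6%, 6.5% and 3.45%, in that order. Only 9 members were left in the upper 25% of signal. For HF+SFC over HF, the count of lower members was 1 in the upper 25% of signal, where Cux2 was not kept, and 1 at 2-fold, where the count of higher members was 0. The shares over all kept genes were 1.11%, 1.19% and 0.767%, in that order. For HF+SFC over Control, the count of lower members was 1 as the median over probe sets (without Bcl6) and 0 at 2-fold, against 6.58% and 1.83% of all kept genes. Of the recomputed log2 ratios of members, 254 moved by less than 1 SD between probe sets and 4 by more, all as the median over probe sets: Igf1, at 0.05 in HF+SFC over HF and 0.05 in HF+SFC over Control, Bcl6, at -1.54 in HF+SFC over HF, and Socs2, at -0.45 in HF over Control. Of the recomputed medians of gene lists, 374 moved by less than the SD between probe sets over the root of the number of genes and 37 by more. The median of the members in HF+SFC over HF was -0.19 over the 7 left when probe sets marked as shared between transcripts were left out. No paired analysis was possible because each group is 1 array. Dim probe sets limit Cux2 most, with an SD of 0.39 at its signal against 0.11 among the brightest probe sets.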
